A study of Mus musculus with 12 samples.

Results

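The drug efflux ABC transporters of mouse liver were described here as 9 genes: *Abcc1*, *Abcc2*, *Abcc3*, *Abcc4*, *Abcc5*, *Abcc6*, *Abcb1a*, *Abcb1b* and *Abcg2*. They were taken by gene symbol from a deposited table of 45777 genes. Liver RNA was sequenced in 12 male C57BL/6 mice, with 3 livers in each of 4 groups. The groups were WT given vehicle, WT given APAP, *Gna12* KO given vehicle and *Gna12* KO given APAP. The labels give an age of 10 to 12 weeks. APAP (acetaminophen, paracetamol) is a common analgesic that is toxic to hepatocytes in overdose, and it was given as a single intraperitoneal dose after an overnight fast, with livers taken within hours. *Gna12* encodes the G protein subunit Gα12, and the WT mice were littermates of the KO mice, which were genotyped from tail DNA. The study also assayed WT and KO livers for *Gna12* by qRT-PCR and for Gα12 by immunoblot. Whole liver was sequenced, so fewer cells of a type and less RNA per cell cannot be told apart.

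ABC transporters are membrane pumps that use ATP to move substrates out of a cell. In hepatocytes, pumps of the canalicular membrane send drug conjugates and bile constituents into bile, and pumps of the basolateral membrane return conjugates to the blood for excretion by the kidney. APAP is cleared largely as glucuronide and sulfate conjugates, and these leave the hepatocyte through such pumps. Several genes of the family are known targets of NRF2, the transcription factor of the oxidative stress response, which binds the antioxidant response element (ARE).

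The total count per liver ranged from 49737950 to 69566079. *Gna12* had 1193 to 4373 counts in the WT livers and 2472 to 4003 counts in those labelled KO, so the count did not separate the labels, and groups are named below by their label ("KO label"). The gene-level count does not give the deleted part of the gene separately. One library stood apart: WT APAP replicate 1 had a summed red blood cell marker level of 17080 CPM (counts per library size, scaled by TMM), against 252 to 749 CPM in the other 11 livers, and a summed neutrophil marker level of 123.1 CPM, against 1.10 to 20.7 CPM. Hepatocyte markers were abundant in every liver, with summed levels of 66750 to 135300 CPM.

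Positions are those of GRCm38. On chromosome 16, *Abcc1* spans 14361453 to 14474878 and *Abcc5* spans 20331303 to 20426428. *Abcc2* lies on chromosome 19 from 43782308 to 43838332, *Abcc3* on chromosome 11 from 94343295 to 94393017, *Abcc4* on chromosome 14 from 118482692 to 118707856, *Abcc6* on chromosome 7 from 45974110 to 46030491 and *Abcg2* on chromosome 6 from 58584491 to 58692451. The paralogs *Abcb1a* (8567091 to 8748575) and *Abcb1b* (8798147 to 8866314) are neighbours on chromosome 5. All 9 genes had counts in all 12 livers and passed the filter on low counts in every comparison.

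*Abcb1a* and *Abcb1b* both encode P-glycoprotein, the multidrug pump that one gene encodes in humans, and their transcripts are in part the same sequence. Of all 100-base stretches of the longest coding transcript, the length of 1 read, 8.51% in *Abcb1a* and 8.89% in *Abcb1b* also occurred in a transcript of another gene. Most of these were shared between the pair, and none was found for the other 7 genes. The longest identical stretch was 338 bases of coding sequence in exons 13 and 14 of both transcripts. A piece as long as 1 read is printed because it shows why single reads cannot always be placed between the paralogs. The capitals mark the codons of the ABC signature motif of the first nucleotide-binding domain, and the piece crosses the junction of the 2 exons (chr5:8702566-8702885 in *Abcb1a* and chr5:8824886-8825205 in *Abcb1b*, GRCm38, plus strand, with the intron left out).
Abcb1a and Abcb1b: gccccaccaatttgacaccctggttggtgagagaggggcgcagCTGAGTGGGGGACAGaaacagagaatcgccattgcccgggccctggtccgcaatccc
The counts of this pair are therefore uncertain as far as the authors' counting could divide such reads. Overlapping annotations may add to this for 5 of the 9 genes, since the strand setting of the counting is not given in the sources used here. The overlaps are of whole gene spans, and whether exons are shared was not examined. *Abcb1a* overlaps the protein-coding gene *Rundc3b* and the lncRNA *Gm31157*, and *Abcb1b* overlaps the lncRNA *Gm5106*. *Abcc3* overlaps the lncRNA *Gm51871*, *Abcc4* the lncRNAs *Gm52104* and *Gm41247*, the miRNA gene *Mir6391* and the pseudogene *Gm23302*, and *Abcc1* the pseudogene *Gm23116*.

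Promoter windows were taken from RefSeq (GRCm38.p6) and ran from 250 bases before to 50 bases after a transcript start. The table held at least 1 window for 6 of the 9 genes, namely *Abcc2*, *Abcc4*, *Abcc5*, *Abcb1a*, *Abcb1b* and *Abcg2*. The ARE core was searched as TGANNNNGC on both strands and occurred in 41.3% of 32851 windows of the same length. That share is per window and not per gene. The core was found in the 1 window each of *Abcc2*, *Abcb1a* and *Abcb1b* and in both of the 2 windows of *Abcc4*. Of the 3 windows of *Abcg2* only window 1 had it, and the 1 window of *Abcc5* had none. The dioxin response core GCGTG, on both strands, occurred in 32.4% of all windows. It was found in window 1 of *Abcc4* and window 3 of *Abcg2*. The AP-1 letters TGANTCA occurred in 7.81% of all windows and in none of these. A match to letters this common is a description of the window and not a binding site. Printed first is window 1 of *Abcc4* (chr14:118706170-118706469, minus strand, inside the annotated span of the gene). It has 2 ARE matches and 2 dioxin response matches. It was chosen because *Abcc4* was among the genes that passed the test after APAP. The window of *Abcc2* (chr19:43782058-43782357, plus strand) is printed for contrast, because *Abcc2* has an ARE match too and is the most abundant of the family here. The capitals mark the ARE matches.
Abcc4: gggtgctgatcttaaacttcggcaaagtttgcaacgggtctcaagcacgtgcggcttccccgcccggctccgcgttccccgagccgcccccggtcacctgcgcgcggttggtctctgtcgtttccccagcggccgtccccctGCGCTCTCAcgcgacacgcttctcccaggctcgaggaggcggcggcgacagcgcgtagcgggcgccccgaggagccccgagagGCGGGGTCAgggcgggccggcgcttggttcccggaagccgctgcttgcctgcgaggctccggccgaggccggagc
Abcc2: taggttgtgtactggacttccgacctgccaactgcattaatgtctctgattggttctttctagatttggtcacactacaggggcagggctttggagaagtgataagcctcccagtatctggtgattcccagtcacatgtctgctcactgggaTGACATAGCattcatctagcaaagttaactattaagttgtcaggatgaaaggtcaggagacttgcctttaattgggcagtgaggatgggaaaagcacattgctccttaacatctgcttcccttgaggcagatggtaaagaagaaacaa

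In the level of their mRNA the 9 genes fell into 2 tiers. Levels were compared between genes as TPM, a share of all transcripts that takes transcript length into account. Unlike the CPM values, TPM has no TMM scaling between libraries, which limits its use for comparing livers. The upper tier was *Abcc2*, *Abcc3*, *Abcg2* and *Abcc6*, which together held 98.1% to 99.3% of the summed TPM of the 9 genes in each liver. *Abcc6*, the lowest of them, exceeded *Abcc5*, the next gene, 41.8-fold in mean TPM, and their ranges over the 12 livers did not overlap.

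*Abcc2*, encoding the canalicular conjugate pump MRP2, had the highest mean level, at 142.6 ± 45.9 TPM (SD, n = 12). *Abcc3*, encoding the basolateral conjugate pump MRP3, followed at 96.4 ± 28.1 TPM, and *Abcc2* was above it in 11 of 12 livers. The exception was WT APAP replicate 1, with 46.9 TPM for *Abcc2* and 48.8 TPM for *Abcc3*. *Abcg2*, encoding the canalicular half-transporter BCRP, had 48.6 ± 9.45 TPM. *Abcc6*, encoding the basolateral pump MRP6 that controls ATP release from hepatocytes, had 44.0 ± 12.6 TPM. The order of the last pair was not resolved, as *Abcg2* was above *Abcc6* in 7 of 12 livers.

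The lower tier lay near or under 1 TPM. *Abcc5*, encoding MRP5, an exporter of cyclic nucleotides, had 1.05 ± 0.495 TPM. *Abcc4*, encoding MRP4, a basolateral exporter of conjugates and bile acids, had 0.797 ± 0.412 TPM. *Abcb1a* had 0.774 ± 0.355 TPM and was above *Abcc4* in more livers than not, since *Abcc4* was the higher of the pair in 4 of 12. *Abcc1*, encoding the basolateral glutathione conjugate pump MRP1, had 0.550 ± 0.341 TPM, and *Abcb1b* had 0.345 ± 0.177 TPM. The ranges of all neighbours in this tier overlapped.

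**Figure D1:**
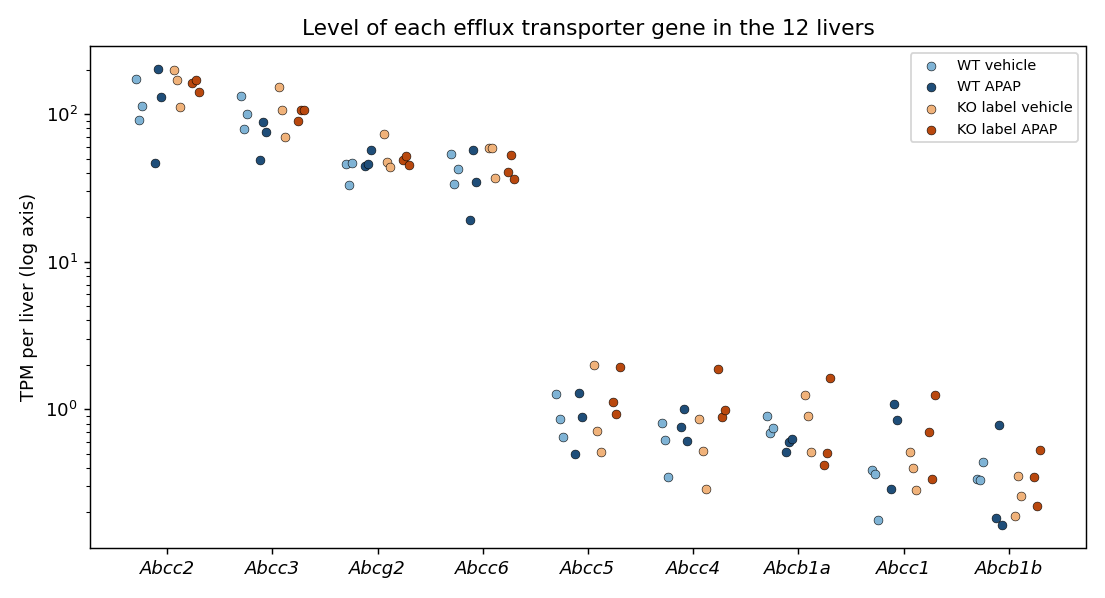
TPM of each gene in each of the 12 livers on a log axis, with genes ordered by mean TPM and 1 point per liver coloured by group. *Abcc2*, *Abcc3*, *Abcg2* and *Abcc6* lie far above the other genes, and *Abcc6* exceeds *Abcc5* 41.8-fold in mean TPM.

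By known membrane, the canalicular genes *Abcc2*, *Abcb1a*, *Abcb1b* and *Abcg2* together held 52.4% to 53.7% of the summed TPM in WT vehicle livers and 57.0% to 62.7% in WT APAP livers. With the KO label the canalicular share was 55.8% to 59.0% with vehicle and 56.1% to 61.2% with APAP. Vehicle and APAP livers did not overlap in WT and overlapped with the KO label. Between the labels, the vehicle livers did not overlap either, and the APAP livers did. These shares were not tested. Depth behind the tiers differed as well: a liver had 12832 to 44133 counts for *Abcc2* but only 25 to 138 for *Abcb1b* and 36 to 277 for *Abcc1*.

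The first question was which of the genes changed with APAP. Over all 12 livers, with the genotype label as a covariate, 2 genes were higher after APAP (*Abcc1* and *Abcc4*) and 1 was lower (*Abcc3*) by edgeR's quasi-likelihood test at an adjusted p under 0.05. That is 3 of 9 genes, where 25.4% of the 16509 genes tested passed, 14.0% higher and 11.4% lower. The share of the family that passed was thus near that of all genes. The median log2 fold change was 0.03 over the 9 genes and 0.009 over all genes tested. No gene of the family had groups that did not overlap, 6 livers against 6, where 12.5% of all genes did. CPM values are given in replicate order.

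*Abcc1* had 1.35, 1.51 and 0.719 CPM in WT vehicle livers and 1.74, 3.47 and 3.08 CPM in WT APAP livers. Livers with the KO label had 1.58, 1.44 and 1.28 CPM with vehicle and 2.12, 1.10 and 3.98 CPM with APAP. All 3 WT APAP livers were above all WT vehicle livers, while KO APAP replicate 2 lay below every vehicle liver of its label. On the TPM scale the WT groups overlapped, because WT APAP replicate 1 had 0.288 TPM against 0.386 and 0.361 TPM in WT vehicle replicates 1 and 2. Over all livers *Abcc1* rose 1.96-fold, a log2 fold change of 0.97 ± 0.31 (SE), with an adjusted p of 0.0334. The call was lost without any one of 7 livers (WT vehicle 1 or 3, WT APAP 2 or 3, KO vehicle 2 or 3, KO APAP 3), with adjusted p values of 0.0571 to 0.107, and the direction stayed the same.

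*Abcc4* had 2.67, 2.46 and 1.32 CPM in WT vehicle livers and 4.34, 3.12 and 2.13 CPM in WT APAP livers. With the KO label the values were 2.50, 1.81 and 1.26 CPM with vehicle and 5.44, 2.78 and 3.03 CPM with APAP. The KO APAP livers were all above the KO vehicle livers, while the WT groups overlapped. *Abcc4* rose 1.73-fold over all livers, with a log2 fold change of 0.79 ± 0.27 and an adjusted p of 0.0479. This call was close to the threshold: with 1 liver left out at a time it held when that liver was WT vehicle 1, WT vehicle 2 or WT APAP 3 and was lost without any one of the other 9 livers, with an adjusted p of up to 0.111.

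*Abcc3* had 384.5, 272.6 and 331.2 CPM in WT vehicle livers and 242.2, 239.8 and 229.4 CPM in WT APAP livers. Under the KO label it had 391.6, 322.0 and 263.2 CPM with vehicle and 228.9, 289.9 and 284.5 CPM with APAP. The WT groups did not overlap, and those with the KO label did. In TPM the WT groups overlapped too, with 88.3 TPM in WT APAP replicate 2 against 79.1 TPM in WT vehicle replicate 2. *Abcc3* fell to 0.771 of its vehicle level, with a log2 fold change of -0.38 ± 0.13 and an adjusted p of 0.0473. In fits that dropped a single liver, the call held without WT vehicle 2, KO vehicle 3 or KO APAP 2, and was lost without any one of the other 9 livers, with an adjusted p of up to 0.123.

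**Figure D2:**
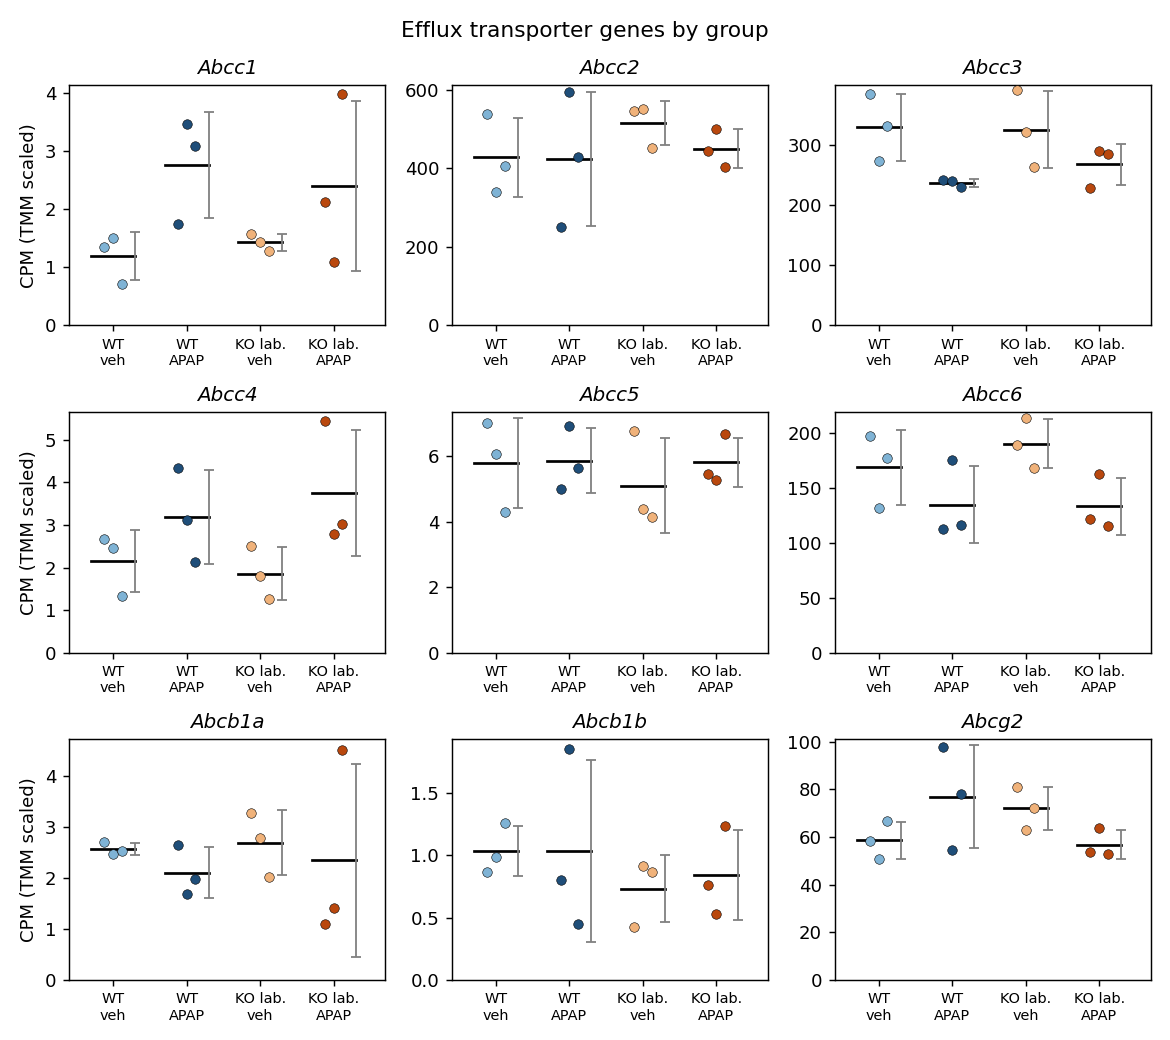
TMM-scaled CPM of each gene by group, with 1 point per liver, a black bar for the mean and a grey bar for 1 SD (n = 3), on axes that start at 0. The WT APAP livers lie above the WT vehicle livers for *Abcc1* and below them for *Abcc3* on this scale, though not in TPM, and KO APAP replicate 3 is the highest liver for *Abcb1a* at 4.52 CPM.

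The remaining genes of the family did not pass the test for APAP over all livers. *Abcc6* came closest: it had 131.3 to 197.4 CPM in WT vehicle livers, 112.9 to 175.0 CPM in WT APAP livers, 168.3 to 213.3 CPM with KO label and vehicle, and 114.9 to 162.8 CPM with KO label and APAP. Its log2 fold change was -0.42 ± 0.15 with an adjusted p of 0.0604, and leaving out WT vehicle 2 or WT APAP 2 brought it past the threshold, with adjusted p values of 0.0228 and 0.0162. In CPM the groups overlapped in WT and not with the KO label, and in TPM they overlapped in both.

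*Abcc2*, the most abundant of the genes, had 537.4, 340.8 and 405.8 CPM in WT vehicle livers and 250.7, 593.1 and 427.7 CPM in WT APAP livers. Livers labelled KO had 544.9, 550.0 and 451.1 CPM with vehicle and 444.9, 501.3 and 404.0 CPM with APAP. Both the lowest and the highest of the 12 livers were WT APAP livers. The log2 fold change was -0.10 with a 95% interval of -0.50 to 0.30 and an adjusted p of 0.721. The data thus leave room for changes of either sign within that interval.

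For *Abcc5*, with 4.16 to 7.03 CPM in the 12 livers, the log2 fold change was 0.10 (95% interval -0.25 to 0.46, adjusted p 0.685). For the P-glycoprotein genes the intervals were wider. *Abcb1a* had 1.10 to 4.52 CPM, both extremes in KO APAP livers, and a log2 fold change of -0.24 (-0.89 to 0.41, adjusted p 0.601). Without KO APAP replicate 3 it was -0.62 over all livers (adjusted p 0.0802), and with the KO label it went from -0.19 to -1.08 (adjusted p 0.0593). *Abcb1b* had 0.420 to 1.85 CPM and a log2 fold change of 0.10 (-0.65 to 0.86, adjusted p 0.862). For both genes the vehicle and APAP livers overlapped in CPM within each label.

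Within each genotype label, with 3 livers against 3, no gene of the family passed the adjusted threshold. In WT this was 0 of 9, where 2.05% of genes passed. An unadjusted p under 0.05 was found for 2 of the 9 and for 18% of all genes. DESeq2 called 0 of the 9 and 1311 genes in all. *Abcc1* had a log2 fold change of 1.22 ± 0.40 (adjusted p 0.165) and *Abcc3* one of -0.46 ± 0.20 (adjusted p 0.277), and these were the 2 genes whose WT groups did not overlap, where 24.8% of all genes did not. This depends on the scale: in TPM both overlapped in WT, and *Abcb1a* did not. It had 0.695 to 0.900 TPM with vehicle and 0.516 to 0.626 TPM with APAP. The share of all genes without overlap was computed in CPM only, so the TPM result has no such share beside it. With the KO label 0 of 9 passed too, where 22.6% of genes did. There, 3 of the 9 had an unadjusted p under 0.05, where 37.1% of all genes had one. DESeq2 called *Abcc4* higher and *Abcc6* lower, and it called 4190 genes in all, against 3538 by edgeR. *Abcc4* had a log2 fold change of 1.02 ± 0.35 (adjusted p 0.0664) and *Abcc6* one of -0.50 ± 0.17 (adjusted p 0.0661), and these were the 2 genes without overlap, where 42.9% of all genes had none. In TPM *Abcc4* alone of the 9 genes had none, again without a share of all genes to set it against. Leaving out KO APAP replicate 2 brought *Abcc1* (adjusted p 0.0479) and *Abcc6* (0.023) past the threshold, whereas without KO APAP replicate 3 the log2 fold change of *Abcc1* was 0.18 (adjusted p 0.772) and that of *Abcc6* -0.40 (0.2).

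**Figure D3:**
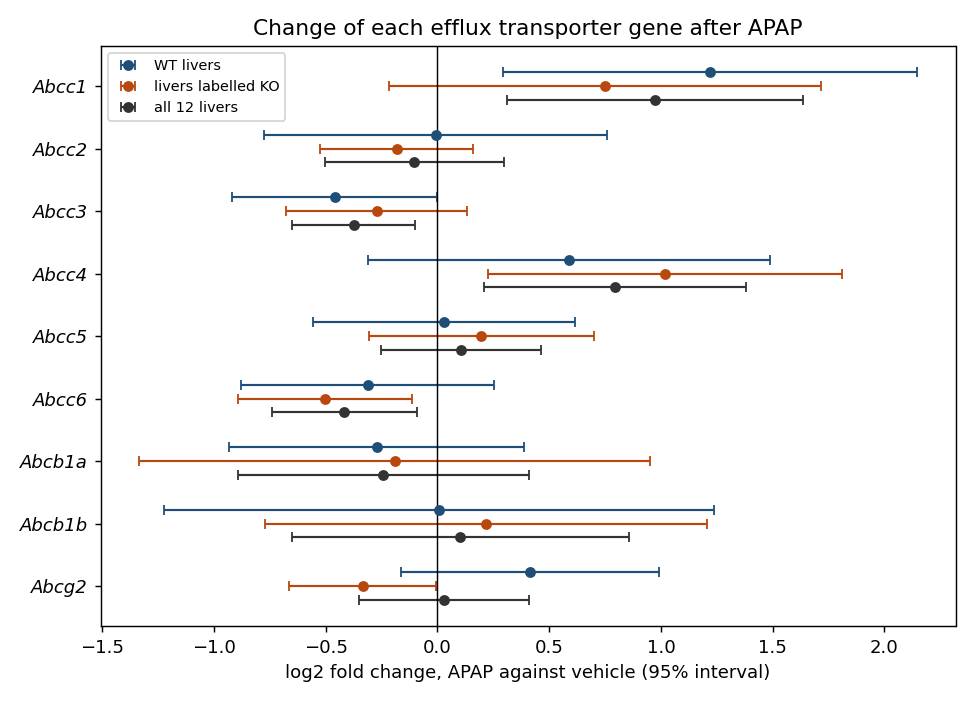
log2 fold change of each gene after APAP, as points with 95% intervals, in WT livers, in livers with the KO label and in all 12 livers with the genotype label as covariate. *Abcc1* and *Abcc4* lie to the right of 0 and *Abcc3* and *Abcc6* to the left, and the 2 labels lie on opposite sides of 0 for *Abcg2*, at 0.41 and -0.33.

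The second question was whether the genotype label made a difference. In vehicle livers 0 of 9 genes differed between the KO label and WT, where 0.0262% of genes did, and in APAP livers 0 of 9 differed, where 0.0309% did. In both, 0 of the 9 had an unadjusted p under 0.05, where 7.56% of all genes had one with vehicle and 3.31% with APAP. DESeq2 called 0 of the 9 in both, and over all genes 121 with vehicle and 36 with APAP. Nor did any of the 9 have groups without overlap, where 14.0% of genes had none with vehicle and 8.53% with APAP, on the CPM scale. In TPM, without TMM scaling, *Abcc3* did not overlap between the labels after APAP. It had 48.8 to 88.3 TPM in WT and 90.4 to 106.5 TPM under the KO label. On the CPM scale these groups overlapped, and the edgeR test gave *Abcc3* an adjusted p of 0.96. No share of all genes was computed in TPM. The intervals remained wide at 3 livers against 3: for *Abcc2* the KO minus WT log2 difference was 0.27 (95% interval -0.20 to 0.73) with vehicle and 0.08 (-0.60 to 0.76) with APAP.

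*Abcg2* was the gene for which the labels differed most in their response. It had 58.1, 50.8 and 66.6 CPM in WT vehicle livers and 98.0, 54.6 and 78.2 CPM in WT APAP livers. Under the KO label it had 81.1, 62.9 and 72.2 CPM with vehicle and 53.6, 63.9 and 52.8 CPM with APAP. The groups overlapped within both labels. The log2 fold change was 0.41 ± 0.25 in WT and -0.33 ± 0.14 with the KO label, and the difference between them was -0.75 ± 0.29, with an unadjusted p of 0.0262 and an adjusted p of 0.872. The interaction thus did not pass for *Abcg2*, and it passed for 0 of 9 genes and for 0% of all genes by edgeR. *Abcg2* was the 1 gene of the 9 with an unadjusted p under 0.05, where 5.14% of all genes had one. DESeq2 called 0 of the 9 and 8 genes in all. In CPM, WT APAP replicate 1 held the highest *Abcg2* value, and without this liver the difference was -0.50. This depends on the scale: in TPM it was the lowest of the WT APAP livers, at 44.7 TPM. The highest liver in TPM was KO vehicle replicate 1, at 72.8 TPM. What part the red blood cell and neutrophil markers of WT APAP replicate 1 have in its CPM value was not tested.

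Other genes of drug handling were described for the same APAP contrast over all 12 livers, from lists written with earlier results of these data known. The counts of these lists stand beside 14.0% of all tested genes higher and 11.4% lower. Among 29 tested ABC transporter genes outside the family, 0 were higher and 13 lower, and the median was -0.34 on the log2 scale. The 3 with the smallest p were *Abca8a* (-1.20), *Abcg5*, a part of the canalicular sterol pump (-0.98), and *Abcb10*, a mitochondrial transporter (-0.99). The bile salt pump gene *Abcb11*, named here after its value was seen, had -0.13 with an adjusted p of 0.53. Among 9 tested solute carrier genes of the hepatocyte, 0 were higher and 8 lower, with a median of -0.88. Those named by the rule were *Slc47a1*, the canalicular exporter MATE1 (-1.13), *Slc10a1*, the bile acid uptake carrier NTCP (-0.88), and *Slc22a3*, an organic cation transporter (-2.78).

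In the 17 NRF2 target genes, 13 were higher and 0 lower, and the median of their log2 fold changes was 1.28. *Srxn1*, encoding sulfiredoxin, rose by 4.35 on the log2 scale, *Gclc*, encoding the catalytic subunit of glutathione synthesis, by 3.09, and *Hmox1*, encoding heme oxygenase 1, by 5.38. In the family itself, *Abcc1* at 0.97 and *Abcc4* at 0.79 lay below that median but within the range of the 17 targets, -0.02 to 7.74. *Abcc3* was below 0, and so was *Abcc2*, with an interval of -0.50 to 0.30 that includes 0. Among 12 genes for regulators of transporter expression, 1 was higher, *Nfe2l2*, which encodes NRF2 itself (0.55), and 3 were lower, among them *Nr1i3*, which encodes CAR (-1.18), and *Ppara* (-1.20).

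Of 16 conjugation genes, 2 were higher and 8 lower, with a median of -0.50. This balance depends on how the glutathione S-transferase genes were divided. *Gsta3* (-0.64), *Gstm2* (-0.43) and *Gstp1* (0.31) were in this list. *Gsta1* (5.57), *Gsta2* (1.08), *Gstm3* (0.69) and *Gstm1* (0.23) were counted among the NRF2 targets instead. *Ugdh*, which makes UDP-glucuronic acid, rose by 1.49 on the log2 scale, whereas *Papss2*, which makes the sulfate donor (-1.42), and the sulfotransferase gene *Sult1d1* (-1.43) fell. Of 8 genes for proteins that anchor or recycle pumps at the membrane, 2 were higher and 3 lower. *Msn*, encoding moesin (0.83), and *Ezr*, encoding ezrin (0.72), rose, and *Pdzk1*, encoding a scaffold (-0.56), fell. Without WT APAP replicate 1 the regulators had 3 higher and 4 lower and the anchors 2 higher and 1 lower, and the other counts moved by at most 1 gene.

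**Figure D4:**
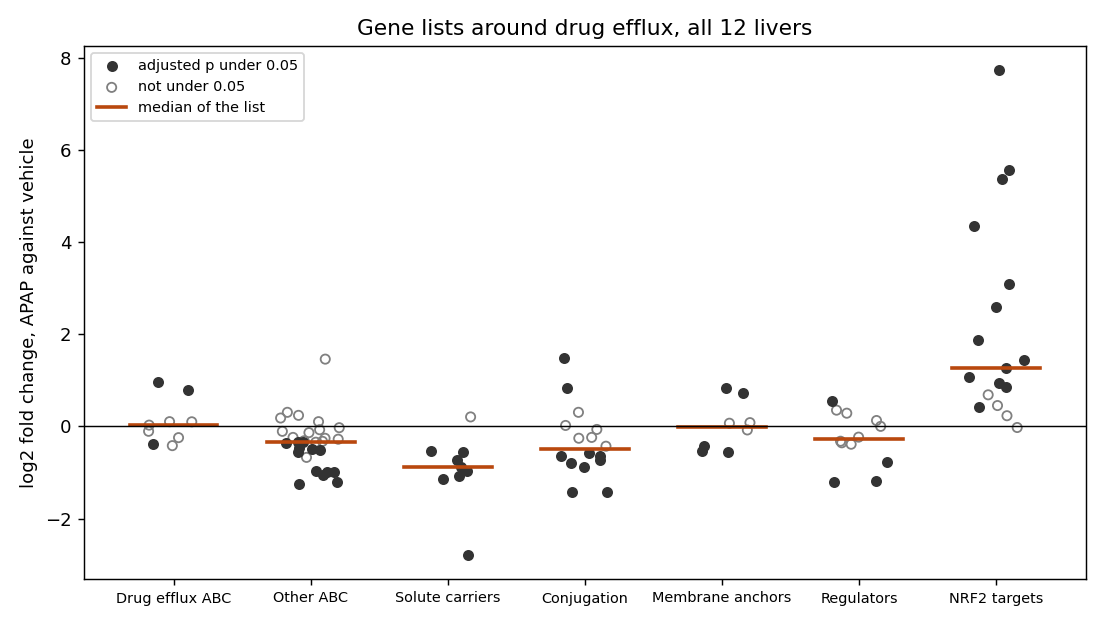
log2 fold change after APAP over all 12 livers for the tested genes of each list, 1 point per gene, filled where the adjusted p was under 0.05, with an orange line at the list's median. The 9 efflux genes lie around 0 (median 0.03), the solute carriers below it (median -0.88) and the NRF2 targets above it (median 1.28).

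Some markers of other cells and zones passed in the same contrast, where 14.0% of all tested genes were higher and 11.4% lower. Of 7 pericentral hepatocyte markers, 6 were lower, and their summed level was 9238 to 10660 CPM in vehicle livers and 3688 to 6033 CPM in APAP livers, with none of the markers at 0 in any liver. Of 7 periportal markers, 2 were lower (*Hal* and *Gls2*), with sums of 7659 to 12390 CPM in vehicle and 7665 to 9548 CPM in APAP livers. Of 7 hepatocyte markers 1 was lower (*Pck1*), and of 6 stellate cell markers 1 was lower (*Lrat*). By edgeR 0 of 6 Kupffer cell and 0 of 5 red blood cell markers passed. None of these had an unadjusted p under 0.05 either, where 37.1% of all genes had one. Of 5 tested cholangiocyte markers, 2 were higher (*Epcam* and *Sox9*), with sums of 12.0 to 26.3 CPM in vehicle and 27.8 to 73.8 CPM in APAP livers, and *Cftr* was at 0 in 5 of 12 livers. For 6 endothelial markers, 3 were higher, with sums of 133.7 to 177.6 CPM in vehicle and 137.4 to 229.7 CPM in APAP livers. Of 5 tested neutrophil markers 1 was higher, with sums of 1.16 to 18.0 CPM with vehicle and 1.10 to 123.1 CPM with APAP, and *Ly6g* was at 0 in 8 livers. The part of these markers in the changes of *Abcc1*, *Abcc3* and *Abcc4* was not tested.

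The genes whose profiles over the 12 livers were closest to each transporter were found among 12147 genes by the root mean square difference of centred log2 CPM. *Abcc2* was closest to *Wdfy2* (0.117) and *Otud3* (0.124), *Abcc3* to *Mipep* (0.101) and *Plod1* (0.119), and *Abcc6* to *Lzts3* (0.104) and *Ece1* (0.114). For *Abcg2* the closest genes were *Hsd17b2* (0.119) and *Nudt1* (0.137), and for *Abcc5* they were *Macf1* (0.145) and *Gbe1* (0.163). Of the lower tier, *Abcc1*, *Abcc4* and *Abcb1a* had less close neighbours. These were *Magi3* (0.362) and *Csf2ra* (0.365) for *Abcc1*, *Hid1* (0.332) and *Itgb3* (0.338) for *Abcc4*, and *H2-Q7* (0.321) and *Fdft1* (0.325) for *Abcb1a*. The difference was not scaled by a gene's own spread, which was also larger for these genes. The root mean square of the centred profile was 0.675 for *Abcc1*, 0.583 for *Abcc4* and 0.519 for *Abcb1a*. For the other transporters compared it was 0.259 to 0.333. *Abcb1b* was below the level at which profiles were compared. The likeness is a description and rests on the same libraries for every pair.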

How the data were processed

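Liver poly-A RNA was sequenced as paired-end 100-base reads on an Illumina NovaSeq from TruSeq Stranded mRNA libraries. Per the labels' processing notes the tools were FastQC 0.11.7, Trimmomatic 0.38, HISAT2 2.1.0, Bowtie2 2.3.4.1 and StringTie 2.1.3b on mm10 (GRCm38); whether counting used strand is not given in the sources used here. Per gene, the authors deposited raw read counts as whole numbers. Their deposited FPKM values divide by transcript length and library size, and the TPM values deposited by the authors precede the logarithm and quantile normalization of the study. Total counts were 49737950 to 69566079 per liver. Each library is labelled as 1 liver of its group.

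Counts were tested with edgeR 4.0.16 (TMM, filterByExpr, glmQLFit and glmQLFTest) in R 4.3.3, and p-values were adjusted by Benjamini-Hochberg over every tested gene, with calls at 0.05. Compared were APAP and vehicle within each genotype label on 6 livers and over all 12 with the label as covariate, KO label against WT within each treatment, and the interaction. Intervals are 95%. Levels between genes used TPM. The alternatives were DESeq2 1.42.0 (size factors and Wald test), no filter, at least 10 counts in every sample, limma 3.58.1 on quantile-normalized log2(TPM + 1), a single fit of all 12 samples, a block for the replicate number, FPKM for levels (the order of genes within a liver is then the same by construction), and each liver left out in turn. After the data were seen, the counts of the other lists without WT APAP replicate 1 were added. The fits were tested on simulated data.

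The 9 genes and all gene lists were chosen with earlier results of these data known. Named in the text were all 9 genes, at most 3 genes of each other list with the smallest unadjusted p over all 12 livers, and *Gna12*. For each transporter with a mean log2 CPM of at least 0, the 2 genes closest in profile were named too. *Abcb11*, the glutathione S-transferase genes, the overlapping genes and the cell markers stand outside this rule. Shared 100-base stretches came from GENCODE vM21 transcripts, and promoter windows and coordinates from RefSeq (GRCm38.p6).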

Additional observations from a re-analysis of the deposited data

How the results depend on the processing

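The APAP calls of *Abcc1*, *Abcc4* and *Abcc3* over all 12 livers lie close to the threshold. Their direction, and that of *Abcc6*, held in all 18 alternatives, whereas the call held in 9 for *Abcc1*, 7 for *Abcc4* and 5 for *Abcc3*. Against 2 genes higher and 1 lower, DESeq2 size factors gave 2 and 0, the DESeq2 Wald test 2 and 2, a filter of at least 10 counts 2 and 1, no filter 1 and 0, and limma on log2(TPM + 1) 0 and 0. Over all genes, the main fit called 4187, and these settings called 4181, 4894, 3727, 3794 and 4391 in that order. The number of genes tested differs with the filter. With each liver left out in turn the count ranged from 0 to 2 higher and from 0 to 2 lower, and without KO APAP replicate 3, WT vehicle replicate 3 or KO vehicle replicate 2 it was 0 and 0. The number of all genes called then ranged from 3225 to 4811. With the KO label alone, where the count was 0 in each direction, the DESeq2 Wald test gave 1 and 1, and leaving out a liver gave 0 to 1 in each direction. Over all genes the Wald test called 4190 there, against 3538 in the main fit and 1995 to 3368 with a liver left out. In the WT, genotype and interaction comparisons every alternative gave 0. The cause of these changes was not tested.

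The replicate block, which takes the shared replicate numbers as pairs, gave 1 higher and 0 lower over all livers and 1 and 1 with the KO label. With the block, 3532 of all genes were called over all livers and 2761 with the KO label. The replicate numbers showed no clear sign of pairing. The correlation of same-numbered livers, as deviations from their group means, ranged from -0.264 to 0.049. Some livers correlated best with their own number and others did not. With 3 livers per group this check cannot exclude pairing. Over all genes, APAP in WT called 322 genes, 1311 with the DESeq2 Wald test, 62 with the block, 1523 in a single fit of all 12 samples, and 41 to 442 with a liver left out, the lowest without WT vehicle replicate 3. The KO label called 3538 genes, 2249 in the single fit, and 1995 without KO vehicle replicate 2. Genotype called 4 genes with vehicle and 5 with APAP, against 121 and 36 by the Wald test, and the interaction 0 against 8. The median of all genes moved by less than 0.1 on the log2 scale. *Abcb1a* and *Abcb1b* rested on single livers: without WT APAP replicate 2 the WT change of *Abcb1b* moved from 0.01 to -0.73, and without KO APAP replicate 3 the change of *Abcb1a* with the KO label moved from -0.19 to -1.08. Low counts limit *Abcb1b*, *Abcc1*, *Abcb1a* and *Abcc4*.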
